A study of Mus musculus with 4 samples.

Results

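Transcripts of the collagen genes were compared between prostates of mice homozygous for a TMPRSS2:ERG transgene and of wild-type mice. Members were taken by name, as Col followed by a number, the letter a and a number, which gave 43 of the 23242 rows of the deposited table. They comprised 11 fibrillar chains, 6 chains of the type IV collagen of basement membranes and 26 chains of other types. RNA came from the ventral and dorsal lobes of the prostates of 4 FVB mice, 2 homozygotes (mice 26 and 29) and 2 wild types (mice 27 and 28), labelled as separate animals. The homozygotes carry human ERG exons in a bacterial artificial chromosome that holds the TMPRSS2 locus, behind a loxP-flanked GFP cassette that was exposed to Cre protein at pronuclear injection. They descend from 1 sub-line that was bred to homozygosity, so that an effect of the transgene and an effect of that sub-line cannot be told apart. Wild types lack the transgene and are labelled negative for ERG, and no source used here gives the ages of the mice. The libraries are of whole lobes, in which fewer cells of a type and less RNA per cell cannot be told apart.

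Collagens are built from chains that wind into triple helices. Fibrillar collagens (types I, III and V among them) form the tension-bearing fibres of the stroma and are made mainly by fibroblasts and smooth muscle cells. Type IV collagen forms the sheet-like network under epithelium and around vessels and muscle cells. The other types line fibres, anchor epithelium to the stroma, form beaded filaments or sit in cell membranes. In the prostate, glands are wrapped in a basement membrane and a sleeve of fibroblasts and smooth muscle.

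Expression is given as scaled FPKM, fragments counted relative to transcript length and library depth, divided by a scaling factor per library. In each library 11541 to 11854 genes reached 1 FPKM. The step between the lowest values of genes with 1 annotated transcript places them between 43000000 and 49000000 fragments, an estimate. Prostate markers were high throughout, with Pbsn, a secreted prostate protein, at 14386 and 11155 scaled FPKM in homozygotes and 12135 and 9477 in wild types. The list of 7 seminal vesicle genes summed to 4341 and 8173 scaled FPKM in homozygotes and to 37006 and 10856 in wild types (mice 27 and 28). In homozygotes nearly all of that sum was 1 gene, Pate4, at 4318 and 8148 scaled FPKM, against 15870 and 9904 in wild types. Svs6, a secreted seminal vesicle protein, was at 12.3 and 15.9 in homozygotes and at 12079 and 455 in wild types. Of the 7 genes 5 were called lower in homozygotes by limma (median log2 fold change of the list -7.16), as were 3.00% of all tested genes. Seminal vesicle transcripts were thus highest in mouse 27, and their part in the values below was not tested. The 8 smooth muscle markers summed to 1340 and 1577 in homozygotes and to 2733 and 1875 in wild types. The 8 fibroblast markers summed to 56.1 and 55.6 in homozygotes and to 70.0 and 69.2 in wild types. In both lists 8 of 8 markers had a fold change below 0 and 0 passed the limma test used for the collagens. At an unadjusted p under 0.05 in limma were 1 fibroblast and 6 smooth muscle markers, and 21.0% of all tested genes. The 8 endothelial markers summed to 31.8 and 34.3 in homozygotes and to 38.4 and 40.4 in wild types. Their fold changes were below 0 in 8 of 8 as well, with 2 at that unadjusted level and 0 called. The direction was thus not particular to fibroblasts and smooth muscle. Fold changes were below 0 in 5 of 5 adipocyte and 3 of 3 tested Schwann cell markers, but in 1 of 5 basal and 2 of 7 luminal epithelial markers. Mouse Tmprss2 was at 42.3 and 47.9 scaled FPKM in homozygotes and at 74.2 and 78.7 in wild types, and the human ERG insert was not analysed here. Mouse Erg, just below the filter on low values, was at 0.881 and 1.12 in homozygotes and at 1.06 and 0.926 in wild types, with overlapping groups.

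None of the 22 tested collagens passed the test between genotypes, and for most of them the interval of the difference held 0. The sum over the 43 members was 171 and 163 scaled FPKM in homozygotes (mice 26 and 29) and 155 and 196 in wild types (mice 27 and 28). The homozygotes thus lay between the wild types. Genes averaging 1 scaled FPKM or more were tested with limma on log2(scaled FPKM + 1), and a gene was called at an adjusted p under 0.05 over all 11762 genes tested. Of the 43 collagens 22 were tested and 0 were called, where 7.65% of all tested genes were (4.65% higher and 3.00% lower in homozygotes). At an unadjusted p under 0.05 in limma there were 3, Col7a1 (higher in homozygotes), Col4a6 and Col12a1 (both lower), while 21.0% of all tested genes reached that level. Fold changes are homozygote minus wild type on this log2 scale, on which changes of low genes look smaller than they are. They ran from -0.53 to 0.71 with a median of -0.13, beside a median of -0.0033 over all tested genes. The 95% interval of the fit held 0 for 19 of the 22, and it lay within -1 and 1 for 19. Both homozygotes were above both wild types in 6 members and below both in 6, which is 54.5% of the tested collagens against 51.1% of all tested genes (25.3% higher and 25.8% lower).

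**Figure D1:**
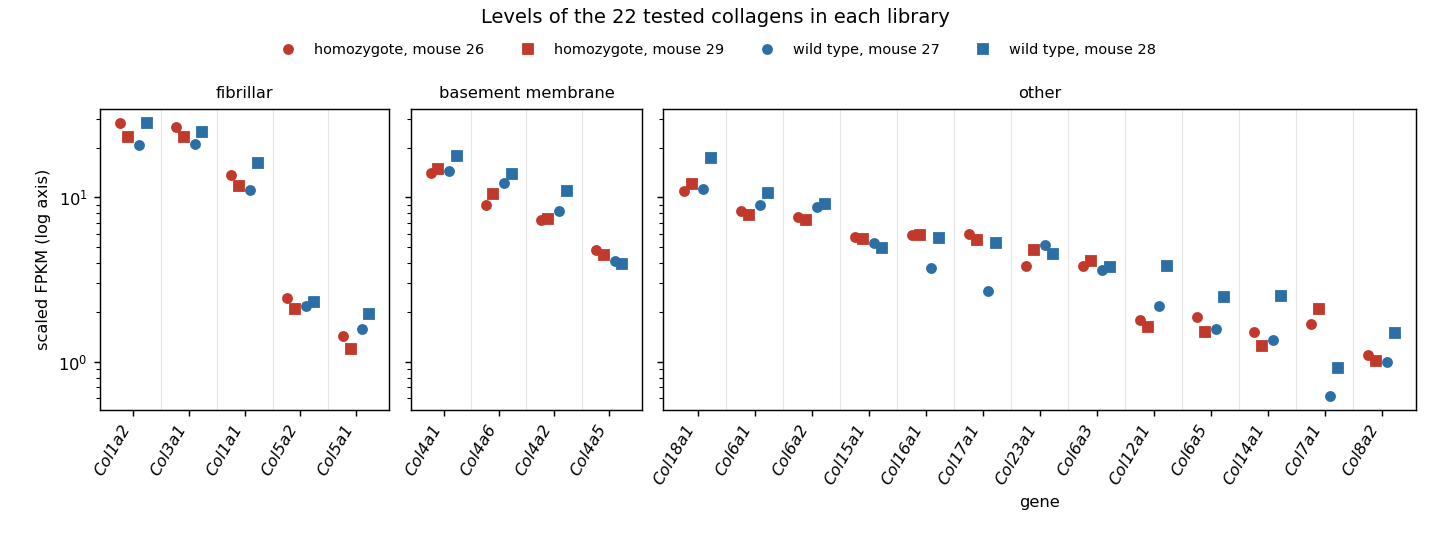
Scaled FPKM (log axis) of the 22 tested collagens in each library, by class and in order of their mean level. Red symbols are homozygotes, blue symbols wild types, and 1 symbol is 1 mouse. Col1a2, Col3a1, Col4a1 and Col18a1 were among the highest members, and in Col7a1 both homozygotes lay above both wild types.

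The wild types differed from each other more than the homozygotes did. Mouse 28 was above mouse 27 in 19 of the 22 tested collagens, against 51.7% of all tested genes, and it was the highest of the 4 libraries in 13, against 31.3%. Mouse 26 was above mouse 29 in 15, against 50.7% of all tested genes. The median absolute log2 difference over the 22 was 0.120 between homozygotes and 0.261 between wild types. Over all tested genes these medians were 0.106 and 0.183. The fold changes moved with the wild type that was used. Without mouse 27 the median log2 fold change was -0.15 for fibrillar, -0.38 for basement membrane and -0.26 for other collagens. Without mouse 28 these medians were 0.17, -0.076 and 0.035. Over all tested genes the medians of those fits were -0.0032 and -0.00073. The fold change of Col7a1 was above 0 whichever library was left out, at 0.59 without mouse 27 and 0.82 without mouse 28. It was 0.80 without mouse 26 and 0.61 without mouse 29. The number of genes called over the whole table changed in these fits too. Such fits take the spread of the genotype that keeps 1 library from the other genotype.

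**Figure D2:**
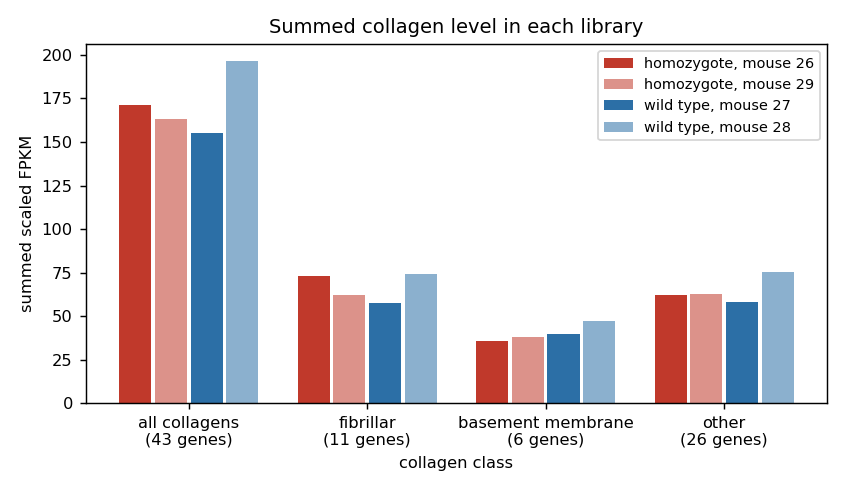
Summed scaled FPKM of all collagens and of each class, with 1 bar per library and the axis starting at 0. Mouse 28, a wild type, had the highest sum in each class. On this scaled unit the homozygotes lay below both wild types in the basement membrane class alone, and unscaled they overlapped there too.

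Among the fibrillar collagens 5 of 11 members were tested and 0 were called, with 3 fold changes above 0 and 2 below it (median 0.0055), and 0 were at an unadjusted p under 0.05 in limma. The fibrillar sum was 73.0 and 62.3 scaled FPKM in homozygotes and 57.4 and 74.0 in wild types, and the groups overlapped. Col1a2, which encodes the second chain of type I collagen, was at 28.004 and 23.1 scaled FPKM in homozygotes and at 20.8 and 28.2 in wild types (log2 fold change 0.07, 95% interval -0.38 to 0.51, limma adjusted p = 0.890). Col1a1, its partner chain, was at 13.6 and 11.7 in homozygotes and at 11.1 and 16.0 in wild types (log2 fold change -0.08, 95% interval -0.54 to 0.38). Col3a1, the single chain of type III collagen that shares fibres with type I, was at 26.7 and 23.2 in homozygotes and at 21.1 and 24.8 in wild types (log2 fold change 0.12, 95% interval -0.21 to 0.44). In each of these 3 genes the homozygote and wild-type values overlapped, and mouse 27 was the lowest library. Together they held 34.1% to 39.9% of the collagen sum.

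Type V collagen sits inside type I fibres and limits their width. Col5a2 was at 2.43 and 2.08 scaled FPKM in homozygotes and at 2.17 and 2.31 in wild types (log2 fold change 0.0055, 95% interval -0.30 to 0.31). Col5a1 was at 1.44 and 1.19 in homozygotes and at 1.59 and 1.95 in wild types (log2 fold change -0.26, SE 0.137, limma adjusted p = 0.369). Both homozygotes were lower in Col5a1, but the difference did not pass the test. The ratio of Col5a2 to Col5a1 within a library, which no scaling changes, was 1.69 and 1.75 in homozygotes and 1.37 and 1.18 in wild types. The ratio of Col1a2 to Col1a1 was 2.06 and 1.98 in homozygotes and 1.87 and 1.76 in wild types. These ratios were chosen after their values were seen and have no test.

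The 6 fibrillar members below the filter were at 0.528 scaled FPKM or less in each library, Col27a1 and Col11a1 among them. Col27a1, which encodes a fibrillar chain best known from cartilage, was at 0.359 and 0.528 scaled FPKM in homozygotes and at 0.195 and 0.179 in wild types, a ratio of group means of 2.37. Col11a1, a chain of the type XI collagen of thin fibrils, was at 0.184 and 0.190 in homozygotes and at 0.0773 and 0.101 in wild types. Col5a3 was at 0.260 and 0.250 in homozygotes and at 0.393 and 0.368 in wild types. In each of the 3 the groups did not overlap, higher in homozygotes for Col27a1 and Col11a1 and lower for Col5a3. With no filter on low values, limma adjusted p was 0.126 for Col27a1, 0.108 for Col11a1 and 0.149 for Col5a3, so none was called. In the authors' deposited table the log2 fold of Col27a1 is 1.39 and its q-value 0.0066. Col2a1, the main cartilage collagen chain, Col11a2 and Col24a1 were at 0.0521 scaled FPKM or less in each library, and the cartilage gene Acan was at most at 0.0025.

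Among the basement membrane collagens 4 of 6 members were tested and 0 were called, with 1 fold change above 0 and 3 below it (median -0.23), and 1 was at an unadjusted p under 0.05 in limma, Col4a6. Their sum was 35.9 and 37.9 scaled FPKM in homozygotes and 39.6 and 47.2 in wild types, lower in both homozygotes. That separation rests on the scaling, since in unscaled FPKM mouse 29 lay above mouse 27 in this sum. Unscaled Col4a2 overlapped as well, at 7.34 and 7.72 in homozygotes and at 7.63 and 11.2 in wild types. Col4a1, the most common type IV chain, was at 14.1 and 14.8 in homozygotes and at 14.4 and 17.7 in wild types (log2 fold change -0.14, 95% interval -0.46 to 0.18, limma adjusted p = 0.637). Col4a2, with which it assembles, was at 7.25 and 7.39 in homozygotes and at 8.28 and 10.8 in wild types (log2 fold change -0.33, SE 0.145, limma adjusted p = 0.273). Col4a1 lies on chromosome 8 from 11198423 to 11312826 in mm10 and Col4a2 from 11312829 to 11449287, head to head with 2 bases between them. The ratio of Col4a1 to Col4a2 was 1.94 and 2.00 in homozygotes and 1.74 and 1.63 in wild types. This ratio too was chosen after its values were seen and has no test. Among further chain ratios, those of Col6a1 to Col6a2, Col4a3 to Col4a4 and Col18a1 to Col15a1 overlapped between genotypes. That of Col6a1 to Col6a2 was 1.10 and 1.08 in homozygotes and 1.02 and 1.17 in wild types. Those of Col3a1 to Col1a1 and Col6a1 to Col6a3 did not overlap.

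Col4a5 and Col4a6 form the same arrangement on chromosome X, with 1342 bases between them, and their values went opposite ways. Col4a6, a chain found in basement membranes of epithelium and smooth muscle, was at 8.91 and 10.5 scaled FPKM in homozygotes and at 12.2 and 13.9 in wild types. The difference was -0.39 on the log2 scale (SE 0.129, 95% interval -0.71 to -0.07, limma adjusted p = 0.155), lower in both homozygotes without passing the test. Col4a5 was at 4.76 and 4.42 in homozygotes and at 4.12 and 3.92 in wild types (log2 fold change 0.16, SE 0.110, limma adjusted p = 0.507), higher in both homozygotes without passing. The ratio of Col4a6 to Col4a5 was therefore 1.87 and 2.38 in homozygotes and 2.97 and 3.55 in wild types, a ratio chosen after its values were seen. Smooth muscle markers were lower in the homozygotes too, as given above, and their part in the Col4a6 values was not tested. The third pair, Col4a3 and Col4a4 on chromosome 1 with 71 bases between them, lay below the filter, and both are best known from kidney filters. Col4a4 was at 0.672 and 0.569 in homozygotes and at 0.448 and 0.670 in wild types, and Col4a3 at 0.262 and 0.254 in homozygotes and at 0.211 and 0.185 in wild types.

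Among the other collagens 13 of 26 members were tested and 0 were called, with 5 fold changes above 0 and 8 below it (median -0.13), and 2 were at an unadjusted p under 0.05 in limma, Col7a1 and Col12a1. Their sum was 62.4 and 62.9 scaled FPKM in homozygotes and 58.3 and 75.2 in wild types. Among the 22 tested members, on the log2(scaled FPKM + 1) scale, Col7a1 had the largest fold change above 0 and Col12a1 the largest below 0.

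Col7a1 encodes the chain of the anchoring fibrils that tie the epithelial basement membrane to the stroma, and it is made by basal epithelial cells and fibroblasts (Entrez 12836, chromosome 9, 108953745 to 108984875, mm10). It was at 1.69 and 2.08 scaled FPKM in homozygotes and at 0.622 and 0.919 in wild types. Both homozygotes were above both wild types, and the ratio of group means was 2.45. The log2 fold change was 0.71 (SE 0.150, 95% interval 0.33 to 1.08, limma adjusted p = 0.0506), which falls just short of a call. Because its transcript is long, these low levels correspond to an estimated 736 and 983 fragments in homozygotes and 230 and 404 in wild types. Col7a1 passed the filter on low values through the homozygotes, since both wild types were under 1. It was called with quantile normalization (limma adjusted p = 0.0345), without a trend (0.0443) and with a robust trend (0.0390), as well as without mouse 27 (0.0311) and without mouse 28 (0.0134). Under the other alternatives the limma adjusted p was between 0.0584 and 0.262. In the authors' deposited table its log2 fold is 1.31 and its q-value 1.74e-05. The row also spans the microRNA gene Mir711.

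The sequence before its start is shown because Col7a1 had the largest fold change among the tested collagens on that scale, beside those of Col27a1 and Col8a1, members below the filter that lay higher and lower in both homozygotes. Each is the 250 bases before the RefSeq start (GRCm38.p6, the C57BL/6J reference, read 5′ to 3′ on the gene's strand). The positions are chr9:108953336-108953585 (+) for Col7a1, chr4:63215162-63215411 (+) for Col27a1 and chr16:57754738-57754987 (-) for Col8a1. The Col7a1 window ends before the start that the deposited table gives. Capitals mark GC boxes, GGGCGG on either strand, to which Sp-family factors can bind.

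Col7a1: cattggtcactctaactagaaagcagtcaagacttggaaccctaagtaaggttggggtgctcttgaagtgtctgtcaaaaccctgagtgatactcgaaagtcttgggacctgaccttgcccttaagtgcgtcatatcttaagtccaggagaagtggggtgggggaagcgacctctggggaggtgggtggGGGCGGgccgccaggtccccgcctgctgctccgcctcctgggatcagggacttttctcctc
Col27a1: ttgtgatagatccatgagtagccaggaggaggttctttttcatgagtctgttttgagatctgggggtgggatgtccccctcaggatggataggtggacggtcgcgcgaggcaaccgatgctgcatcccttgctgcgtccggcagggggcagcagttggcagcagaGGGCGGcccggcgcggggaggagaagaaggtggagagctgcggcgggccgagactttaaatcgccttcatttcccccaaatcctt
Col8a1: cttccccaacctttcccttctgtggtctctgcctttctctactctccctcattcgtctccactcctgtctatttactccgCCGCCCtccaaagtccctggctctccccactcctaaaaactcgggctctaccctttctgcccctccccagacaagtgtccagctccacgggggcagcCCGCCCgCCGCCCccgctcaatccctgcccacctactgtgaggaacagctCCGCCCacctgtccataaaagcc

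The windows of Col7a1 and Col27a1 hold 1 GC box each and that of Col8a1 holds 4. Of 38 such windows, which belong to 35 of the 43 collagens, 22 (57.9%) hold at least 1 GC box, against 32.7% of all 32851 windows in the table. A core bound by ETS factors such as ERG, written as CGGAAG or AGGAAG on either strand, is in none of the 3 windows shown. It is in 12 of the 38 collagen windows (31.6%) and in 39.2% of all windows. The AP-1 motif TGANTCA is in 1 of the 38 (2.63%) and in 6.75% of all windows. A match is a description of the letters, and a window without one says nothing of the factor.

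**Figure D3:**
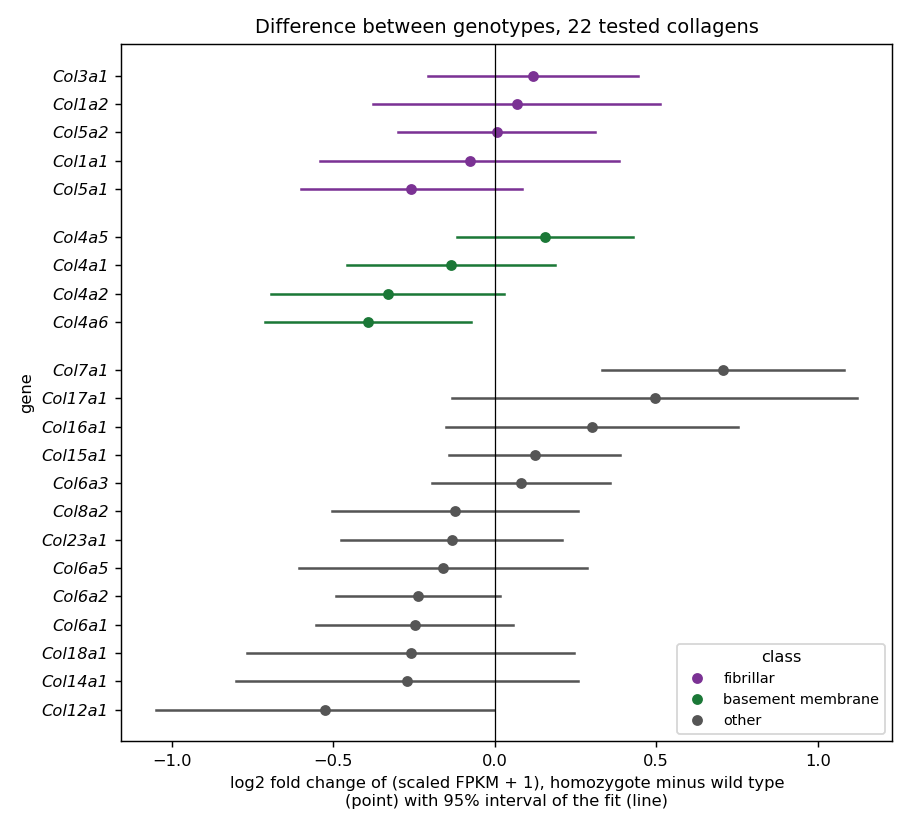
Log2 fold change of the 22 tested collagens, homozygote minus wild type on the log2(scaled FPKM + 1) scale, with the 95% interval of the limma fit as a line and the class as colour. Col7a1 at 0.71, Col4a6 at -0.39 and Col12a1 at -0.53 are the members whose interval leaves out 0, and 19 intervals hold it.

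Col17a1, a membrane collagen of the hemidesmosomes of basal epithelial cells, was at 6.003 and 5.52 scaled FPKM in homozygotes and at 2.68 and 5.25 in wild types. Mouse 27 stood apart, and the other 3 libraries lay close together (log2 fold change 0.49, SE 0.253, limma adjusted p = 0.348). Without mouse 28 the fold change was 0.88 (limma adjusted p = 0.0053), and without mouse 27 it was 0.11 (0.596). The basal keratin gene Krt5 split the wild types in the same way, at 66.0 and 64.4 in homozygotes and at 31.5 and 87.1 in wild types. Krt14, another basal keratin gene, was at 10.3 and 9.51 in homozygotes and at 5.98 and 8.02 in wild types, higher in both homozygotes without passing (log2 fold change 0.46, limma adjusted p = 0.160). The 5 basal epithelial markers summed to 223 and 188 in homozygotes and to 112 and 221 in wild types (mice 27 and 28). Krt14 was the basal marker of the 5 in which, as in Col7a1, both homozygotes were above both wild types. Krt5, Krt15, Trp63 and Dst overlapped between genotypes, the fold change of Dst was below 0 (-0.18), and none of the 5 passed. The part of basal cell content in Col17a1 or Col7a1 was not tested. Among the other membrane collagens, Col23a1 was at 3.82 and 4.78 in homozygotes and at 5.09 and 4.50 in wild types, and the groups overlapped.

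FACIT collagens attach to the surface of fibres. Col12a1, which coats type I fibres in tissue under tension, was at 1.80 and 1.64 scaled FPKM in homozygotes and at 2.19 and 3.799 in wild types. Both homozygotes were lower (log2 fold change -0.53, SE 0.210, 95% interval -1.05 to -0.0039, limma adjusted p = 0.235), but the wild types lay far apart. Without mouse 27 the fold change was -0.83 (limma adjusted p = 0.0048), and without mouse 28 it was -0.23 (0.322). Its log2 fold in the authors' deposited table is -0.88 and its q-value there 8.09e-04. Col14a1, a related chain, was at 1.52 and 1.25 in homozygotes and at 1.35 and 2.51 in wild types, with overlapping groups. Col16a1 was at 5.93 and 5.87 in homozygotes and at 3.71 and 5.66 in wild types (log2 fold change 0.30, SE 0.182, limma adjusted p = 0.430), and its separation from mouse 28 was slight.

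Type VI collagen forms beaded filaments around cells from the chains of Col6a1, Col6a2 and Col6a3 or their relatives. Col6a1 was at 8.29 and 7.81 scaled FPKM in homozygotes and at 8.92 and 10.6 in wild types, and Col6a2 at 7.56 and 7.22 in homozygotes and at 8.75 and 9.05 in wild types. Both homozygotes were lower in these genes, both on chromosome 10 (log2 fold changes -0.25, SE 0.123, and -0.24, SE 0.102), and neither passed (limma adjusted p = 0.332 and 0.267). Col6a3 was at 3.81 and 4.12 in homozygotes and at 3.62 and 3.76 in wild types (log2 fold change 0.08). Col6a5 was at 1.86 and 1.52 in homozygotes and at 1.59 and 2.48 in wild types, and the groups overlapped.

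Col18a1 and Col15a1 encode the multiplexins, which lie in and beside basement membranes and release anti-angiogenic fragments. Col18a1 was the highest of the other collagens, at 10.9 and 12.1 scaled FPKM in homozygotes and at 11.2 and 17.3 in wild types (log2 fold change -0.26, 95% interval -0.77 to 0.25). Col15a1 was at 5.74 and 5.55 in homozygotes and at 5.28 and 4.93 in wild types (log2 fold change 0.12, 95% interval -0.14 to 0.39). Col8a2, a chain of the short network collagen of vessels and cornea, was at 1.10 and 1.01 in homozygotes and at 1.00 and 1.498 in wild types.

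Below the filter, 13 of the other collagens had means from 0.0048 to 0.698 scaled FPKM. Col9a2, a chain of a FACIT collagen of cartilage, was at 0.616 and 0.638 in homozygotes and at 0.188 and 0.378 in wild types, a ratio of group means of 2.21. Col8a1, the partner of Col8a2, was at 0.536 and 0.515 in homozygotes and at 0.790 and 0.951 in wild types. Both separated the genotypes without a call, with a limma adjusted p of 0.130 for Col9a2 and 0.128 for Col8a1 when no filter was applied. Col20a1 and Col6a6 were lower in both homozygotes, and Col13a1, Col28a1 and Col9a3 overlapped between genotypes. Over the 12 members of all classes with a mean between 0.1 and 1, both homozygotes were higher in 4, lower in 4 and overlapping in 4. The share of all genes at such levels was not computed, so the count shows nothing particular to collagens. The remaining 9 of the 43 collagens were at 0.0521 scaled FPKM or less in each library, an estimated 18 fragments or fewer. Of these Col2a1, Col9a1, Col10a1 and Col19a1 are listed at 0 in at least 1 library.

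**Figure D4:**
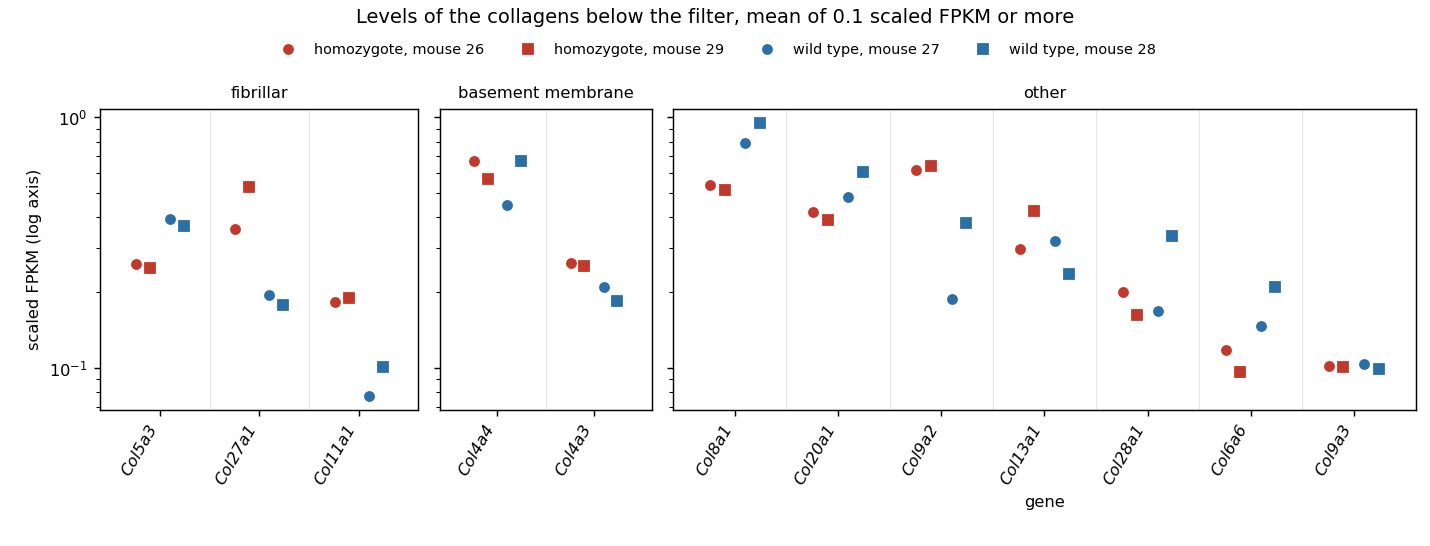
Scaled FPKM (log axis) of the 12 collagens below the filter with a mean of at least 0.1, by class, with the symbols of the plot of tested collagens. Homozygotes lay above wild types in Col27a1, Col11a1, Col9a2 and Col4a3 and below them in Col5a3, Col8a1, Col20a1 and Col6a6.

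In the authors' deposited table, 31 of the 43 collagens have a q-value, and 3 of them are under 0.05, Col7a1 and Col27a1 higher and Col12a1 lower in homozygotes. Of all genes with a q-value there, 14.2% are under 0.05 (7.04% higher and 7.10% lower).

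Genes for making and crosslinking collagen chains included 3 that passed the test. Of 34 rows on the list of collagen biosynthesis and crosslinking, 25 were tested, 3 rose and none fell (median log2 fold change 0.06), where 4.65% of all tested genes rose and 3.00% fell. Other genes were higher in homozygotes as well. Of 5 mast cell markers 4 were called higher, with list sums of 176 and 140 scaled FPKM in homozygotes and 11.0 and 13.7 in wild types. The luminal marker Epcam was called higher too, at 442 and 437 in homozygotes and at 263 and 245 in wild types, and the part of either in the 3 genes was not tested. Creb3l1, which encodes a membrane-bound transcription factor that promotes type I collagen expression in mouse bone, was at 103 and 106 scaled FPKM in homozygotes and at 19.1 and 31.7 in wild types. It rose by 2.04 in log2 units (SE 0.232, limma adjusted p = 0.0074). On the log2(scaled FPKM + 1) scale this was the largest change among the tested collagens and tested partner genes. P4ha2, a catalytic subunit of prolyl 4-hydroxylase, was at 27.1 and 25.03 in homozygotes and at 12.6 and 14.0 in wild types. It rose by 0.92 (SE 0.111, limma adjusted p = 0.0090). Plod3, a lysyl hydroxylase that also adds sugars to collagen, was at 19.3 and 20.5 in homozygotes and at 10.7 and 13.1 in wild types. It rose by 0.70 (SE 0.128, limma adjusted p = 0.0328). In all 3 genes both homozygotes were above both wild types.

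The call of Creb3l1 held under each alternative in which it was tested. That of P4ha2 was lost without mouse 26 (limma adjusted p = 0.0801) and without mouse 29 (0.0510). That of Plod3 was lost with unscaled FPKM (limma adjusted p = 0.0714) and with no filter (0.0689). It was also lost without mouse 26 (log2 fold change 0.74) and without mouse 29 (0.66). The authors' deposited table gives Plod3 a log2 fold of 0.81 and a q-value of 1. That fold has fewer digits than the others of the list, and the reason is not known. The most abundant members did not pass. P4hb, a disulfide isomerase that is also the other prolyl 4-hydroxylase subunit, was at 1021 and 870 in homozygotes and at 912 and 814 in wild types. Ppib, a prolyl isomerase, was at 729 and 620 in homozygotes and at 692 and 538 in wild types. Ctage5, a cargo export factor, was at 71.6 and 78.6 in homozygotes and at 72.0 and 75.1 in wild types. Serpinh1, the collagen chaperone, was at 16.4 and 16.8 in homozygotes and at 21.0 and 15.5 in wild types. Plod2, another lysyl hydroxylase, was lower in both homozygotes without passing, at 4.72 and 4.67 against 6.65 and 6.51 in wild types (limma adjusted p = 0.0815).

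**Figure D5:**
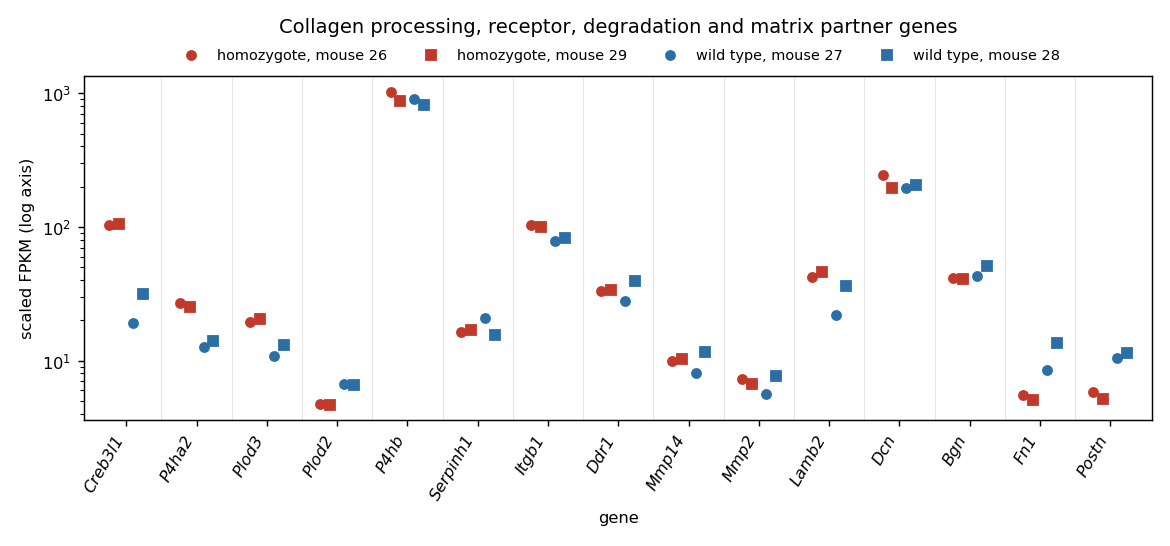
Scaled FPKM (log axis) of 15 genes of collagen processing, collagen receptors, collagen degradation and matrix partners, with the symbols of the plot of tested collagens. Homozygotes lay above wild types in Creb3l1, P4ha2 and Plod3, which passed the test, and below them in Postn, which also passed. They also lay above wild types in Itgb1 and Lamb2 and below them in Plod2, Fn1 and Bgn, none of which passed.

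No collagen receptor and no collagen-degrading enzyme passed the test. Of 11 receptor genes 6 were tested and 0 were called by limma, with 1 higher and 2 lower at an unadjusted p under 0.05. The authors' deposited table calls 1 lower, Gpr56. Of all genes, 21.0% reached that unadjusted level in limma and 7.10% are called lower in the authors' deposited table. Itgb1, the shared chain of collagen-binding integrins, was at 104 and 99.05 scaled FPKM in homozygotes and at 79.1 and 82.6 in wild types (log2 fold change 0.32, limma adjusted p = 0.178). Itga1, a chain of a collagen IV receptor, was at 1.57 and 2.16 in homozygotes and at 2.88 and 3.02 in wild types (log2 fold change -0.47, limma adjusted p = 0.133). Ddr1, an epithelial collagen receptor kinase, was at 33.2 and 33.5 in homozygotes and at 27.7 and 39.4 in wild types. Gpr56, an adhesion receptor that binds type III collagen, was at 17.8 and 24.2 in homozygotes and at 21.8 and 31.4 in wild types. Of 8 degradation genes 5 were tested and 0 were called by limma, with 0 at an unadjusted p under 0.05 and 0 in the authors' deposited table. Pepd, which splits proline dipeptides, was at 31.4 and 30.5 in homozygotes and at 32.5 and 29.1 in wild types. The collagenase Mmp14 was at 9.83 and 10.2 in homozygotes and at 8.02 and 11.7 in wild types, and the gelatinase Mmp2 at 7.26 and 6.66 in homozygotes and at 5.62 and 7.62 in wild types.

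Among proteins that bind collagen fibres 1 passed, and it was lower in homozygotes. Of 9 genes on that list 8 were tested, 1 fell and none rose, and 7 of the 8 fold changes were below 0 (median -0.28), while the authors' deposited table calls 4 lower, Postn, Fn1, Fmod and Tnxb. Of all genes 3.00% fell in limma and 7.10% are called lower in the authors' deposited table. Postn, a matrix protein that aids collagen crosslinking, was at 5.78 and 5.19 scaled FPKM in homozygotes and at 10.4 and 11.4 in wild types. Its log2 fold change was -0.87 (SE 0.114, limma adjusted p = 0.0114), and the call was lost without mouse 26 (0.0620) and without mouse 29 (0.101). Fn1, encoding fibronectin, was at 5.53 and 5.02 in homozygotes and at 8.47 and 13.4 in wild types (log2 fold change -0.90, SE 0.211, limma adjusted p = 0.0677). Fmod, a small proteoglycan of fibre surfaces, was at 11.2 and 14.6 in homozygotes and at 18.4 and 24.3 in wild types (log2 fold change -0.68, limma adjusted p = 0.0975). Both were lower in both homozygotes without passing. Fn1 was called without mouse 27 (limma adjusted p = 4.58e-04) and without mouse 28 (0.0225), and Fmod without mouse 27 (0.0069). The proteoglycan genes Dcn and Bgn and the collagen-binding Sparc were the most abundant of the list and were not called. Dcn was at 243 and 197 in homozygotes and at 196 and 207 in wild types, Sparc at 95.6 and 80.8 in homozygotes and at 109 and 89.1 in wild types, and Bgn at 41.1 and 40.6 in homozygotes and at 43.1 and 50.6 in wild types.

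Of 16 genes for laminins and other partners of type IV collagen, 14 were tested and 0 were called by limma. At an unadjusted p under 0.05 in limma 1 was higher and 3 were lower, where 21.0% of all tested genes reached that level. The authors' deposited table calls 2 lower, Hspg2 among them, and 7.10% of all genes. The laminin chain gene Lamb2 was at 42.2 and 45.6 in homozygotes and at 21.95 and 36.1 in wild types (log2 fold change 0.62, limma adjusted p = 0.203). Without mouse 27 its fold change was 0.28 (0.164), and without mouse 28 it was 0.97 and called (0.0024). Lamc1, the chain shared by most basement membrane laminins, was at 8.77 and 9.33 in homozygotes and at 9.83 and 13.8 in wild types, lower in both homozygotes without passing (log2 fold change -0.33, limma adjusted p = 0.342). Without mouse 27 its fold change was -0.56 and called (0.0137), and without mouse 28 it was -0.11 (0.609).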

How the data were processed

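RNA was sequenced from prostate lobes of 4 mice, grouped by the genotype in the labels, and nothing else says whether the libraries differ in handling. The deposited FPKM values were made by the authors. TopHat 1.3, Cufflinks 1.3 and the mm10 build come from the submitters' processing notes. No source used here states their roles, the annotation or whether strand was used. Per the file headers, the table also holds the authors' fold changes and their p-value and q-value columns, the folds being read here as log2 from their values. No source used here names the tool behind them, and deposited folds without a finite value were left out. The value 99999 was read as a code and treated as missing, which affects no collagen.

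FPKM were divided by median-of-ratios factors (1.01 and 1.04 for mice 26 and 29, 0.921 and 1.03 for mice 27 and 28), from genes at 1 FPKM or more in each library. The limma package 3.58.1 (R 4.3.3) was applied to log2(scaled FPKM + 1) (trend, two-sided, Benjamini-Hochberg, threshold 0.05) for genes with a mean of at least 1. Degrees of freedom were 2 residual and 3.62 prior, and the fit was tested on simulated data. Depth was estimated, not counted, so no counting interval is given, and fragments were estimated with the longest GENCODE transcript. Starts were raised by 1. Alternatives were other scalings, pseudocounts, filters and variance models, each library left out, and the authors' call. Members, lists and tests were chosen with earlier results of these data known. Named genes are the called collagens, the 4 highest of each class, those of clear separation, and the called and 3 highest members of each partner list, 1 of which is not reported here. Other named genes, Plod2, Serpinh1, Fn1, Fmod, Itga1 and Ibsp among them, were chosen after their values were seen.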

Additional observations from a re-analysis of the deposited data

How the results depend on the processing

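No paired analysis was possible because no mouse and no replicate number is shared between the genotypes. Over the libraries left out, the genes called numbered 355 to 2028, collagens 0 to 6, basement membrane collagens 0 to 2, other collagens 0 to 4 and partner genes 1 to 10. The median fold change of the basement membrane collagens ran from -0.38 to -0.076 over them. It was -0.039 with no filter and -0.0088 in the authors' deposited table. Quantile normalization, no trend and a robust trend each called 1 collagen, Col7a1, among the other collagens. The authors' deposited call gives 2034 genes, 3 collagens (1 fibrillar, 2 other) and 9 partner genes. Fibrillar collagens stayed at 0 in the limma alternatives.

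Some folds changed sign when 1 library was left out. They ran from -0.069 to 0.082 for Col5a2, -0.29 to 0.035 for Col8a2, -0.15 to 0.28 for Col1a2 and -0.28 to 0.0033 for Col4a1. Col6a5 ran from -0.38 to 0.051 and Col1a1 from -0.32 to 0.17. Col18a1 and Col14a1, at -0.26 and -0.27 with all libraries, ran from -0.55 to 0.031 and from -0.57 to 0.018. In both, the fold above 0 was that without mouse 28. Partner genes ran from -0.041 to 0.32 for Ppib, -0.037 to 0.10 for Ctage5, -0.23 to 0.26 for Ddr1, -0.070 to 0.084 for Pepd, -0.20 to 0.29 for Mmp14, -0.12 to 0.27 for Mmp2, -0.031 to 0.27 for Dcn and -0.32 to 0.094 for Serpinh1. With quantile normalization P4hb was at -0.13, Ppib at -0.10, Ctage5 at -0.049, Ddr1 at -0.044 and Pepd at -0.050. In the authors' deposited table Ddr1 was at -0.0012 and Serpinh1 at 0.011. The cause of these changes was not tested. None of these genes was called in the settings where its sign changed.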

Other observations

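Among the markers of cartilage and bone, listed to look for other sources of collagen transcripts, 2 of 5 genes were tested and 1 fell. In limma 3.00% of all tested genes fell. Ibsp, which encodes the integrin-binding sialoprotein of mineralised matrix, was at 0.0211 and 0.0494 scaled FPKM in homozygotes and at 19.7 and 11.4 in wild types. It passed the filter on low values through the wild types alone. Its log2 fold change was -3.95 (SE 0.247, limma adjusted p = 0.0011), on a scale that understates it, and it was called under each alternative run. The untested markers of the list, Bglap, Acan and Matn3, were at 0.177 scaled FPKM or less in each library, the highest value being that of Bglap in mouse 27, a wild type. Sox9, which prostate epithelium also expresses, was at 17.7 and 16.2 in homozygotes and at 11.3 and 17.8 in wild types.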
